A study of Homo sapiens with 34 samples.

Results

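HIST2H2BE, CLASP1, ROBO1, C6orf106, KIF1BP, TSHZ1 and KHSRP each have an m6Am peak that was higher than in untreated cells in both stress lists of HEK293T cells, after heat shock and under hypoxia. They were chosen by their place in these lists: each has a row with a deposited ratio above 1 in the heat shock list and in the hypoxia list, and the spans of the rows overlap. They are 7 of the 1807 gene names found in the 3 deposited lists and account for 21 rows, 7 in each list. Because the ratios and spans of both stresses chose the genes, they are given as a description with no test. Of all rows, 52.7% of the 74 in the heat shock list and 92.1% of the 390 in the hypoxia list were above 1, so a raised row was the usual case under hypoxia, and nothing is read from the 7 of 7 raised in each. The lists are used as given here and hold somewhat fewer m6Am peaks than the paper counts for each stress. These shares and the choice of genes therefore rest on the rows at hand.

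m6Am is a methylated adenosine at the first transcribed position of an mRNA, next to the m7G cap. PCIF1 adds its N6-methyl group where transcription starts at an A, and the demethylase FTO can remove it. The transcription start site (TSS) in use therefore decides whether a transcript can carry the mark at all.

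HEK293T is a line of human embryonic kidney cells that carry the SV40 large T antigen. The study mapped m6Am by enriching capped RNA fragments with an m7G antibody, treating part of them with FTO and enriching both parts with an m6A antibody, so that peaks lost with FTO are m6Am. Heat-shocked cells were held at 43 °C for 2 h and recovered for 6 h, hypoxic cells had 1% oxygen for 24 h, and untreated cells served as the control of both stresses. For each of these conditions there are 2 m6A-IP libraries without and 2 with FTO treatment, 1 input library and 2 of m7G-IP, and the wild-type HEK293T map has 2 of every kind. Both stress ratios share the untreated libraries, so the ratios of a gene in the 2 lists are not independent of each other. Every list gives 1 outer span per peak, introns included, with a gene name and no strand, count or replicate. Depth is therefore unknown, and no error can be set beside a ratio. RNA levels of the genes were not analysed here, so a higher share of methylated caps and more capped transcripts cannot be told apart. For most genes with stress-regulated marks the paper reports mRNA levels that did not change. Its values for the genes of this report were not used.

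All 7 genes have an annotated TSS inside the span (GRCh37, Gencode release 44), and in every gene at least 1 of these TSSs is an A. Most raised rows share this: 76.9% of 39 in the heat shock list and 77.7% of 354 with a Gencode gene in the hypoxia list hold a TSS at an A. The windows below show 1 such TSS per gene on the transcribed strand, because the mark lies on the first transcribed base. The start in use was not determined here and need not be an annotated one. The paper places most of its m6Am sites downstream of annotated TSSs. Where a span holds several TSSs, the one shown was picked because its base is an A in the context CCA, GCA or TCA. Each holds 15 bases before the TSS and 15 from it onwards, and the capitals mark the TSS base, which is the last of them, and the bases just before it. The windows lie at chr1:149858218-149858247 for HIST2H2BE, chr19:6424808-6424837 for KHSRP, chr2:122407013-122407042 for CLASP1, chr3:79068595-79068624 for ROBO1 and chr6:34664530-34664559 for C6orf106, all on the minus strand. Those of KIF1BP and TSHZ1, at chr10:70748544-70748573 and chr18:72922737-72922766, are on the plus strand.
HIST2H2BE: cccgcccattctcTTActtcttttcttggc
KHSRP: agcggctgggttcCCAgagtgctccgcggc
CLASP1: tttaatccccgcaCCAagcgcttaacctca
KIF1BP: gtcccgactgcaaACAttgaggaaagccag
ROBO1: gggaaacccacaaGCAattgagctggagag
C6orf106: gagtgagtgagtgGCAgagtgagtttaccc
TSHZ1: atgtgtctgtctaTCAgttgagactgtctg

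At the TSSs shown, the context was CCA in KHSRP and CLASP1, GCA in ROBO1 and C6orf106 and TCA in TSHZ1, and it was TTA in HIST2H2BE and ACA in KIF1BP. The other TSSs in the spans were in other contexts. In CLASP1 these were TTT at the 5′ end of the span, TAA and CTC, in KHSRP CGT and CCC, and in TSHZ1 GTA at the 5′ end of both spans, 42 bp upstream of the TSS shown, with AGA, TAG and GAG further along the heat shock span. A TSS in one of the contexts CCA, GCA or TCA was thus present in 5 of the 7 spans in both lists, beside 51.3% of the 39 raised rows of the heat shock list (95% Wilson interval 36.2 to 66.1%) and 56.8% of the 354 raised rows of the hypoxia list that have a Gencode gene (interval 51.6 to 61.8%). Counting only the first annotated TSS inside each span, read from its 5′ end, the TSS base was an A in 6 of 7 genes, CLASP1 being the exception, beside 41.0% of raised rows after heat shock and 39.5% under hypoxia. The contexts CCA, GCA and TCA at this first TSS inside the span were found in 3 of 7 genes, KHSRP, ROBO1 and C6orf106, beside 9 of 39 and 85 of 354 raised rows. Intervals cover counting error over rows only.

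The 5′ end of the span lay exactly on an annotated TSS in 5 of the 7 genes (HIST2H2BE, KHSRP, CLASP1, ROBO1 and TSHZ1). Among raised rows with a Gencode gene, 23.1% of 39 did so in the heat shock list (interval 12.6 to 38.3%) and 28.8% of 354 in the hypoxia list (interval 24.3 to 33.7%). Of the 9 such rows after heat shock, 5 belong to the 7 genes. Shares for TSSs, coding sequence, antisense genes and short spans are over raised rows with a Gencode gene throughout, the 7 genes included. In the remaining pair, the span of C6orf106 began 9 bp downstream of the nearest TSS, which lies outside it and is not the TSS shown and counted above, and that of KIF1BP 82 bp upstream of it. An annotated TSS inside the span was common among raised rows, at 94.9% after heat shock and 92.4% under hypoxia, so the 7 of 7 do not stand out there. None of these differences was tested, since the genes were picked with results known.

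**Figure D1:**
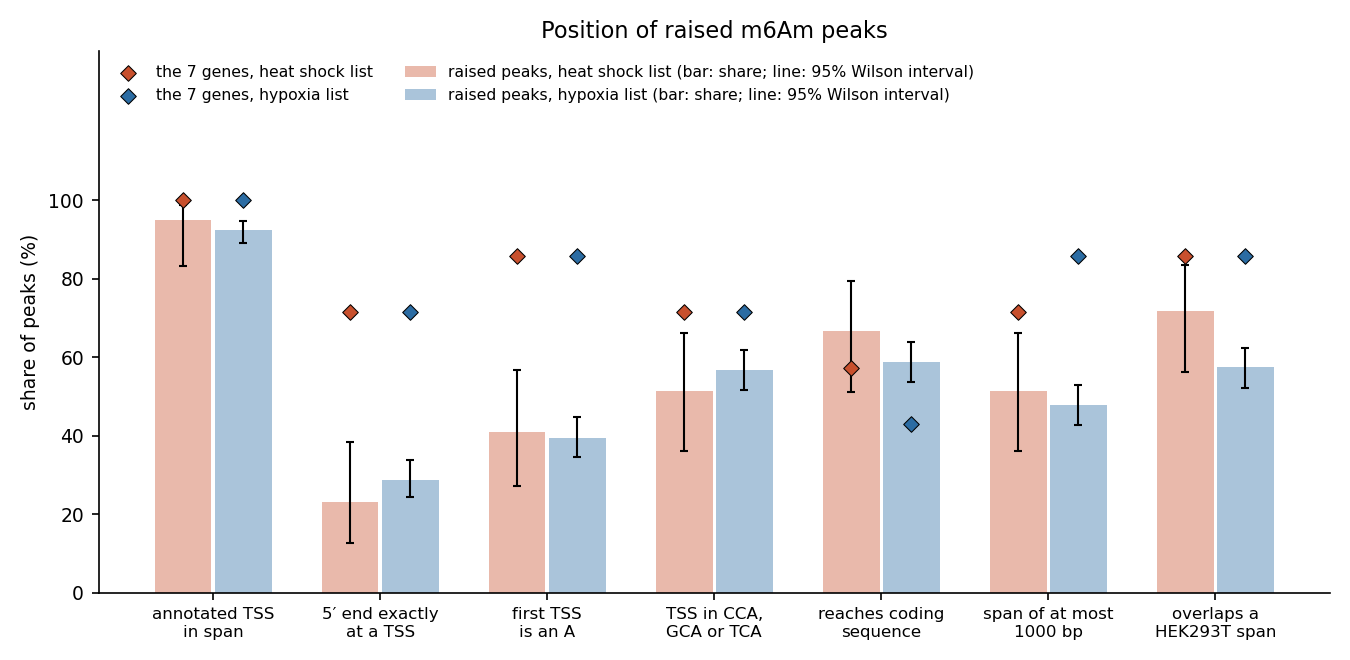
Share of peaks (%) with each feature of position, for the raised peaks of the heat shock and hypoxia lists (bars, with 95% Wilson intervals as lines; 39 and 354 peaks with a Gencode gene, and for the HEK293T overlap 39 and 359) and for the 7 genes (diamonds). The diamonds lie at 5 of 7 for a 5′ end exactly at a TSS, where the bars are at 23.1% and 28.8%.

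The wild-type HEK293T list was not used to choose the genes. Of the 7, 6 have a HEK293T row whose span overlaps the stress spans by at least 1 bp, and TSHZ1 has neither a row nor an overlapping span there. Among all raised rows, 71.8% of 39 in the heat shock list (interval 56.2 to 83.5%) and 57.4% of 359 in the hypoxia list (interval 52.2 to 62.4%) overlapped a HEK293T span. The same start and end as in HEK293T were found for 3 genes in the heat shock list (KHSRP, CLASP1 and ROBO1), beside 12.8% of its raised rows, and for 3 in the hypoxia list (KHSRP, ROBO1 and C6orf106), beside 12.0%. All 6 genes kept the 5′ end of the HEK293T span in both stresses. Of all raised rows that overlap a HEK293T row of the same name, these genes included, 80.8% of 26 after heat shock and 77.9% of 195 under hypoxia had the same 5′ end, while 19.2% and 28.7% had the same 3′ end.

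**Figure D2:**
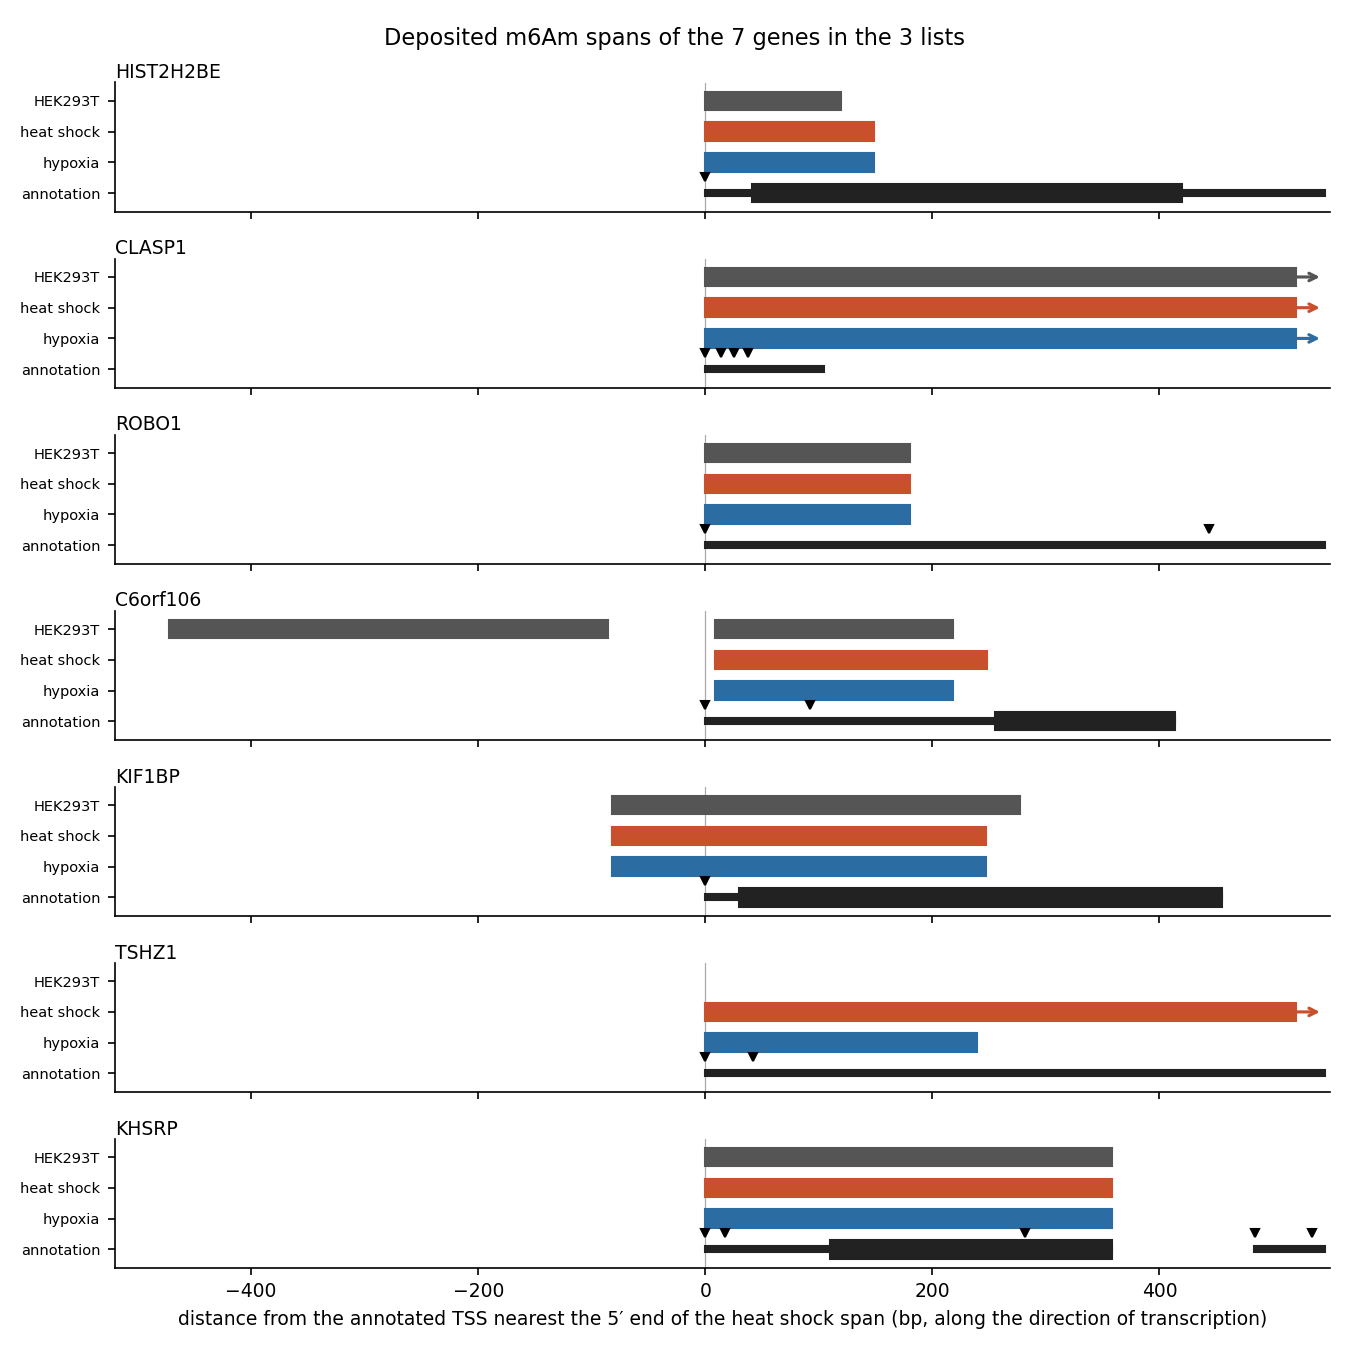
Deposited spans of the 7 genes in the HEK293T, heat shock and hypoxia lists, as distance in bp from the annotated TSS nearest the 5′ end of the heat shock span. Triangles are annotated TSSs, thin black bars exons and thick black bars coding sequence, and arrows mark spans that run past the axis, in CLASP1 with lengths of 43432 and 43462 bp and in TSHZ1 after heat shock with 74833 bp.

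HIST2H2BE encodes a core histone H2B, a protein of the nucleosome, and is named H2BC21 in Gencode. Its rows in both stresses cover chr1:149858084-149858232 (minus strand), 149 bp that begin at its single annotated TSS. In unstressed cells the span is 120 bp long and ends 29 bp earlier at the 3′ side. The 5′ untranslated part is 42 bases, so 107 of the 149 bases are coding sequence. The deposited ratio was 2.10 after heat shock and 2.15 under hypoxia. H2B genes are near-identical copies of each other, and reads may be shared among them, so the assignment to this copy is uncertain. Of the genes whose names begin with HIST, it was the only one in the heat shock list, while the hypoxia list also has HIST1H2BD with a ratio of 2.35 and HIST1H4J with 2.23, both raised. HIST1H2BD overlapped a HEK293T span and HIST1H4J did not.

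KHSRP encodes a KH-domain protein that binds AU-rich elements in mRNA and promotes their decay. All 3 lists give it the same span, chr19:6424464-6424822 (minus strand), which is the whole first exon of 359 bp, with 110 bases of 5′ untranslated sequence and 249 of coding sequence. Its ratios were the furthest apart of the 7 genes, 1.53 after heat shock and 2.24 under hypoxia. The former is the lowest raised value of the heat shock list and falls short of the 2-fold limit stated for the lists when the value is read as a linear ratio. Read as a log2 value, as its column is headed, it would pass that limit, but then no row of either list would be lowered. SHOX2, at 1.55, is the next above it. The exonic bases of the span, here all of it, are 83.6% G or C. This is the highest share of exonic bases among the raised rows of the heat shock list, whose median is 60.0%. In the hypoxia list, where 341 raised rows have exonic bases, the median is 61.5% and the highest share is 90.0%. Of the other RNA-binding genes on the list of AU-rich element and KH-domain proteins, only QKI had a stress row, raised under hypoxia with a ratio of 2.45.

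The upstream sequences of HIST2H2BE, KIF1BP and KHSRP are shown because motifs were found in them near the TSS where the span lies. Each is 100 bases long and ends at the base before the TSS, at chr1:149858233-149858332 (minus strand) for HIST2H2BE, chr10:70748459-70748558 (plus strand) for KIF1BP and chr19:6424823-6424922 (minus strand) for KHSRP, all GRCh37. Capitals mark, on either strand, the TATA box motif TATAAA, the octamer motif ATTTGCAT, the motif CCAAT that NF-Y is known to bind and the motif ACGTG.
HIST2H2BE: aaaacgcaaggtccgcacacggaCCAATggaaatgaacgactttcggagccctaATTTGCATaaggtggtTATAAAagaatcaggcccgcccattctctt
KIF1BP: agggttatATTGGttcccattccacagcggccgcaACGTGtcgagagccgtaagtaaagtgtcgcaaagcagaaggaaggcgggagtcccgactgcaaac
KHSRP: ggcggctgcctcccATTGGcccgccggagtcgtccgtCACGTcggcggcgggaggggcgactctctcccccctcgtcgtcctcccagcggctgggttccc

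In HIST2H2BE, TATAAA begins 30 bases, the octamer ATTTGCAT 46 bases and CCAAT 77 bases upstream of the TSS. The octamer and the TATA box are known elements of H2B promoters. Shares over all genes were taken from 35116 RefSeq promoter windows (GRCh38.p14) of 250 bases before and 50 after each start, both strands searched. TATAAA was in 11.5% of them, ATTTGCAT in 1.77% and CCAAT in 34.6%. RefSeq windows were matched for 6 of the 7 genes, 7 windows in all, since ROBO1 has 2. CCAAT was in those of 5 genes (HIST2H2BE, CLASP1, ROBO1, KIF1BP and KHSRP). The CLASP1 match lay 26 bases into the transcript, and those of the other genes lay upstream of the start. GGGCGG was in the windows of 4 genes (HIST2H2BE, C6orf106, KIF1BP and KHSRP) beside 45.0% of all windows. TATAAA and ATTTGCAT were in that of HIST2H2BE alone. ACGTG, the core of the element bound by hypoxia-inducible factors, was in the windows of KIF1BP and KHSRP, 65 and 63 bases upstream of the start, and in 21.4% of all windows. GAANNTTC, inverted repeats of the unit of the heat shock element, was in those of KIF1BP and ROBO1, 36 and 33 bases into the transcript, beside 6.77% of all windows, and TTCNNGAA was in none of the 7 windows, beside 7.74%. A match describes the letters in the window and not binding, which was not tested.

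CLASP1 encodes a protein that binds the plus ends of microtubules and stabilises them. It has the longest span in the HEK293T and hypoxia lists among the 7 genes, since the span crosses an intron. The heat shock row, chr2:122363621-122407052 (minus strand), has the same ends as the HEK293T row and measures 43432 bp, of which 241 bp are exonic and none coding. Under hypoxia the span reaches 30 bp further at the 3′ side, with 271 exonic bases. The first of 4 annotated TSSs in the span is a T within a run of T, and the others lie 14, 25 and 38 bp downstream of it. CLASP1 had the highest ratio of the 7 genes after heat shock, 2.19, and the lowest under hypoxia, 2.04. Its neighbours by ratio were ROBO1 (2.18) and EXOC8 (2.20) in the heat shock list and RPS14P3 (2.03) and ZNF566 (2.04) in the hypoxia list.

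KIF1BP, now KIFBP, encodes a kinesin-binding protein that blocks the motor domain of several kinesins. Its span in both stresses is chr10:70748477-70748806 (plus strand), 330 bp, and the HEK293T span is 30 bp longer at the 3′ side. The first 82 bp lie before the Gencode TSS at 70748559, where 17 of 20 annotated transcripts begin. This stretch holds the ACGTG shown above. The authors called peaks with exomePeak on RefSeq hg19 transcripts, whose starts were not compared with this span here. After 30 bases of 5′ untranslated sequence, 218 bases of the stress spans are coding. The ratio was 2.16 after heat shock and 2.41 under hypoxia, the highest of the 7 genes there, with SCAF4 at 2.41 just below and KMT2E at 2.41 just above. Besides CLASP1 and KIF1BP, the list of microtubule plus-end and kinesin genes had a single stress row, KIF3B under hypoxia, with a ratio of 0.119 and no HEK293T overlap.

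ROBO1 encodes a receptor for SLIT ligands in axon guidance. All 3 lists hold the same 181 bp, chr3:79068429-79068609 (minus strand), which are exonic and untranslated. This is not the outermost promoter of the gene: the TSS at 79068609 lies 748539 bp inside the annotated 5′ end of ROBO1, and 2 of its 12 transcripts start there. The deposited ratio was 2.18 after heat shock and 2.25 under hypoxia. No other gene of the axon guidance list had a row in either stress list, whereas EPHA5, EPHB1, PLXNA2 and SEMA6A were in the HEK293T list. This was not particular to ROBO1. Other role lists also had genes in the HEK293T list alone: HIST1H2BO, HIST2H4B and HIST4H4, KIF14, KIF27, KIF2A and KIF3C, HNRNPD, PCBP2 and ZFP36L2, and NBR1.

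C6orf106, now ILRUN, encodes an inhibitor of antiviral transcription driven by IRF3. After heat shock its span was chr6:34664388-34664627 (minus strand), 240 bp of untranslated exon that stop 7 bases before the coding sequence. Under hypoxia and in HEK293T the span was 30 bp shorter at the 3′ side, chr6:34664418-34664627. The deposited ratio was 2.16 after heat shock and 2.19 under hypoxia. HEK293T cells have another row of this name, chr6:34664722-34665108, which lies upstream of every annotated C6orf106 TSS and inside the exon of ILRUN-AS1, a gene on the opposite strand, and neither stress list holds it. ILRUN-AS1 also covers the whole of the C6orf106 spans, with 112 of the 240 bp in its exon, and NIFK-AS1 covers 157 bp at the 5′ end of the CLASP1 spans. The paper states that mapped reads were separated by strand, but the lists themselves give no strand. Peaks of these genes and of their antisense partners were therefore not assigned to a strand here. The CLASP1 spans hold parts of 2 CLASP1 exon blocks, and NIFK-AS1 lies over their 5′ end only. A gene on the opposite strand lay over 41.0% of raised rows in the heat shock list and 29.7% in the hypoxia list.

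TSHZ1, a zinc finger homeobox transcription factor of development, is the one gene of the 7 with no row in the HEK293T list as given. Both stress spans begin at the same TSS, 72922710 on chromosome 18 (plus strand). The hypoxia span, chr18:72922710-72922949, holds 240 bp of untranslated exon, whereas the heat shock span runs to 72997542 and measures 74833 bp, with 4203 exonic bases, 180 of them coding, and all 5 annotated TSSs. The 2 spans share 240 bp. The deposited ratio was 2.15 after heat shock and 2.37 under hypoxia. No other teashirt gene and none of PCIF1, FTO, ALKBH5, METTL3, METTL14 and METTL4 was named in any of the lists.

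Between the stresses, 4 of the 7 genes had the same start and end (HIST2H2BE, KIF1BP, KHSRP and ROBO1), CLASP1 and C6orf106 differed by 30 bp at the 3′ side, and TSHZ1 differed by 74593 bp there. The median span was 330 bp after heat shock and 240 bp under hypoxia, beside 477 bp and 1284 bp over all raised rows. Counting exonic bases alone, the medians were 241 and 240 bp, beside 335 and 310 bp over raised rows with a Gencode gene. Spans of at most 1000 bp were found for 5 of 7 genes after heat shock and 6 of 7 under hypoxia, beside 51.3% and 47.7% of raised rows. The span overlapped coding sequence in 4 of 7 genes after heat shock and 3 of 7 under hypoxia, beside 66.7% and 58.8%.

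**Figure D3:**
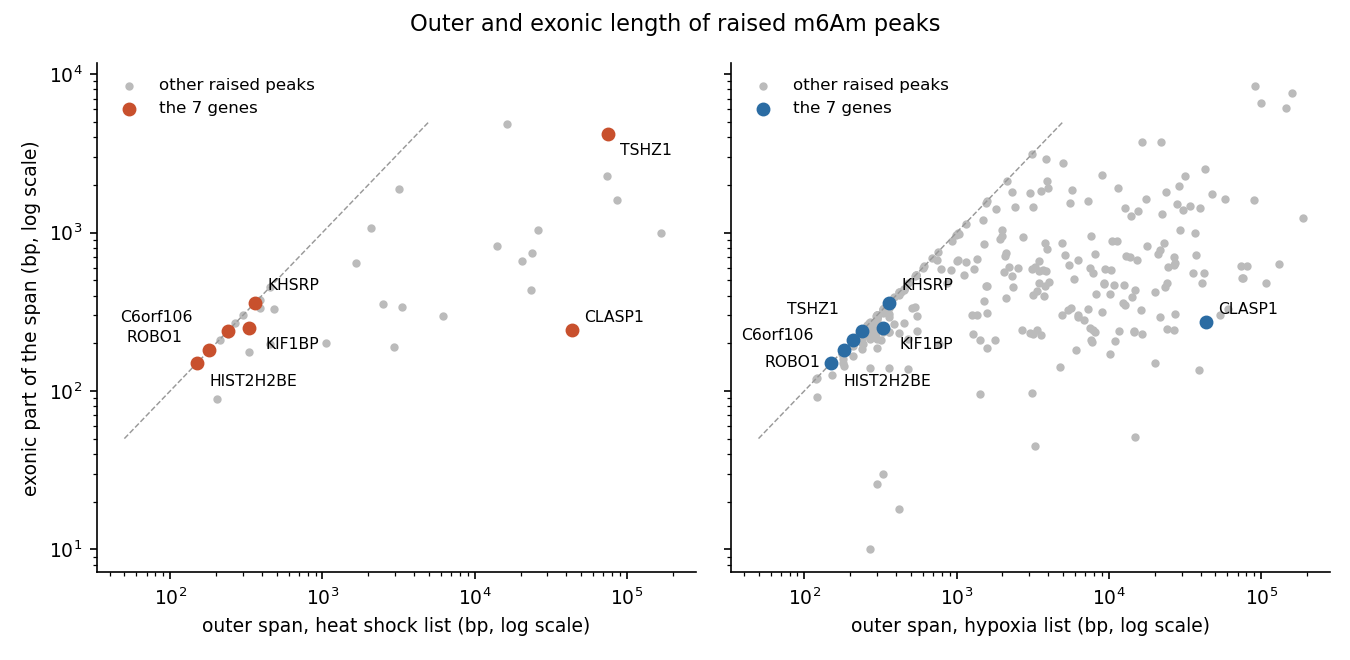
Outer span against its exonic part (bp, both axes log scale) for the raised peaks of each stress list with a Gencode gene, leaving out 13 hypoxia peaks with no exonic base, and with the dashed line where both are equal. CLASP1 lies far to the right of the line in both lists, and TSHZ1 only after heat shock, where its span is 74833 bp.

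The ratios of the 7 genes lay in a narrow range, from 1.53 to 2.19 with a median of 2.16 after heat shock and from 2.04 to 2.41 with a median of 2.24 under hypoxia. Over all raised rows, the median ratio was 2.21 in the heat shock list, where values reached 4.38, and 2.31 in the hypoxia list, where they reached 16.7. All 7 genes were below the median of raised rows after heat shock, at places 1 to 15 of 39 from the lowest, and 5 of 7 were below it under hypoxia, where KIF1BP stood at place 249 and TSHZ1 at 228 of 359. On the limit of 1 that chose the genes, the lowest raised values were 1.53 (KHSRP) and 1.80 (MFSD11), and the highest values not raised were 0.649 (TMEM107) after heat shock and 0.955 (CNFN) under hypoxia.

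**Figure D4:**
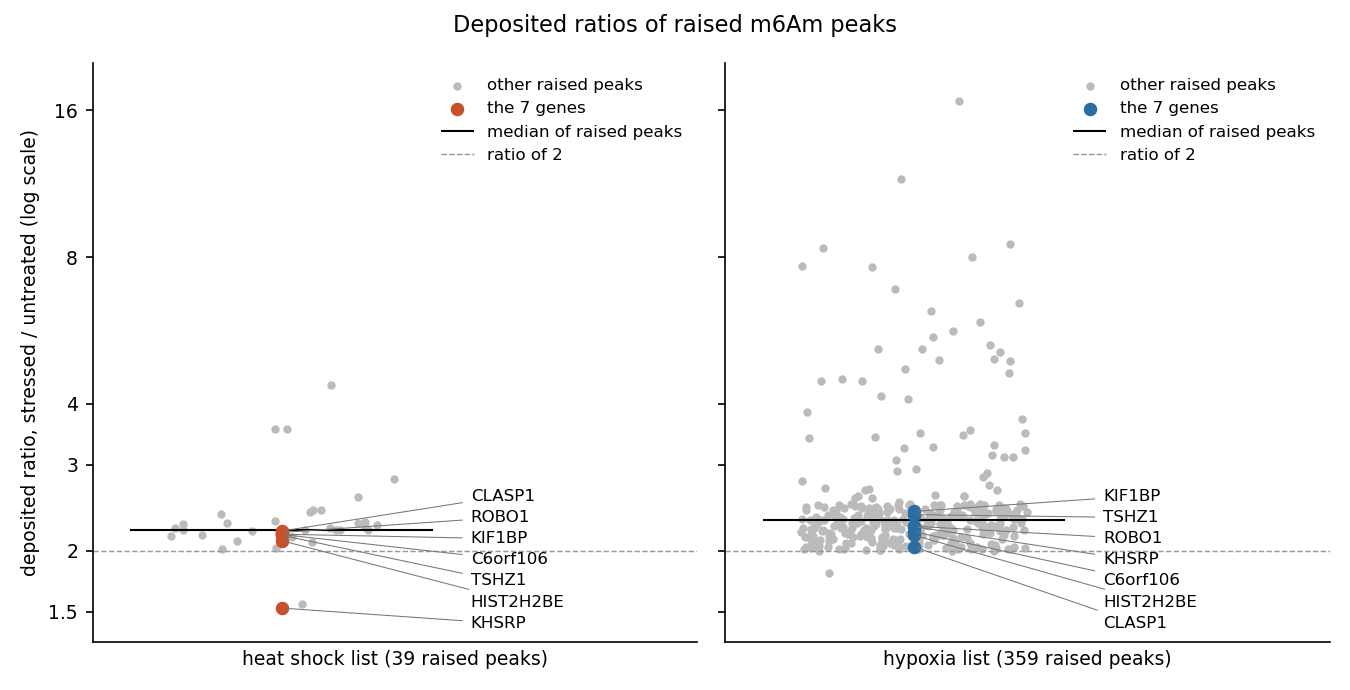
Deposited ratio of stressed to untreated cells (log scale) for each raised peak of the heat shock list (39) and the hypoxia list (359), with the 7 genes in colour and the median of raised peaks as a line. The 7 genes sit between 1.53 and 2.41, and no gene of the 7 is among the peaks above 3. Most raised peaks of both lists are below 3 too, with medians of 2.21 after heat shock and 2.31 under hypoxia.

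EXOC8, a subunit of the exocyst, had raised rows in both lists with ratios of 2.20 and 2.39, but its spans, chr1:231472901-231473140 after heat shock and chr1:231473289-231473618 under hypoxia, lie 148 bp apart. Both fall inside 1 HEK293T span of 1256 bp.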

How the data were processed

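The authors trimmed reads with Trim Galore 0.6.6, aligned them to hg19 and took peaks from exomePeak and MACS2 that an m7G-IP peak overlapped. Stressed and untreated cells were compared by the authors with exomePeak and DESeq2. The deposited ratio is theirs, 1 value per peak. Its column is headed log2 fold change, but it has no negative values and was therefore taken as linear, with raised meaning above 1. How replicates were combined is not given in the sources used here. Depth is unknown.

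Rows were found by gene name. Overlap means at least 1 bp of the outer spans. Positions count from 1 on GRCh37: 244 HEK293T starts fell on the first base of a Gencode exon, and 20 when shifted by 1 base either way. Old symbols were matched through RefSeq synonyms. Shares have 95% Wilson intervals, and no test was run. The overlap rules were tested on simulated data. Python 3.11.15 and Matplotlib 3.10.9 were used.

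The genes and lists were chosen with earlier results of these data known. Other genes named are those with rows in both stress lists, the rows next to the highest and lowest gene by ratio, those of role lists with a stress row, and rows at the limit of 1. Role list genes found in HEK293T alone, and the rows at the limit, were named after their values were seen. Alternatives were other overlap rules, ratio limits, the log2 reading of the ratio, distinct spans, protein-coding transcripts and exonic lengths. The libraries of PCIF1-KO cells and CAGE were not used here. Some results are not reported here.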

Additional observations from a re-analysis of the deposited data

How the results depend on the processing

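Of 23 alternative values for 10 results, 16 stayed close to the value reported and 7 moved. Whether a result changed direction was not assessed. Close means within 1.5 times for a count, within the Wilson interval for a share and equal for a median length, so that a median span of 330 bp after heat shock against 241 exonic bases counts as a change. Requiring an identical start and end left 4 of 7 genes with a shared span between the stresses and 3 with a HEK293T span, since that rule drops genes whose ends differ by 29 or 30 bp or, for TSHZ1 between the stresses, by 74593 bp. With a ratio of at least 3, 0 of the 7 genes were raised in both stresses, and with at least 2, 6 were, KHSRP being the one lost. Both counts follow the raised rows as a whole. Of these, 94.9% of 39 after heat shock and 99.7% of 359 under hypoxia were at least 2, and the medians of 2.21 and 2.31 lie below 3. Read as log2 values above 0, all 7 were raised in both, but no list has a negative value, so this outcome was fixed beforehand. It is counted among the 16 and says nothing about the genes. The shares of raised rows were not taken under this reading. Requiring 50% of both spans to be shared left 6 genes between the stresses, without TSHZ1.

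No paired analysis was possible because the results come from lists with 1 value per peak and no test. Neither depth nor replicates are given in the lists, so the precision of a single ratio is unknown.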
